A study of Mus musculus with 2 samples.

Results

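The cytosolic ribosomal protein genes encode the protein components of the ribosome outside the mitochondria. They were taken by gene symbol: names that begin with Rpl or Rps and a digit, together with Rpsa, Rplp0, Rplp1 and Rplp2, but without pseudogene symbols (those with -ps) and without the Rps6k kinases. A row also needed at least 100 UMIs, which are counted RNA molecules, over both libraries. Of 86 candidate symbols, 84 met this, among the 32285 genes listed in the files. Rpl3l entered with 101 UMIs, Rpl39l stayed out with 62, and Rpl10l had 0. The members were 50 genes with a large subunit symbol and 34 with a small subunit symbol. Of these, 77 are core ribosomal proteins and 6 are paralogs, Rpl3l, Rpl7l1, Rpl22l1, Rpl36al, Rps27l and Rps27rt. Rps19bp1 carries the symbol but encodes a binding partner of Rps19.

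The data were 2 single-cell RNA-seq libraries from wild-type (WT) mice that carried tumours of MC38-OVA, a mouse colon carcinoma line with ovalbumin as a model antigen. One library, Control, came from mice on a control diet, and the other, Sitagliptin, from mice whose diet held sitagliptin, an inhibitor of the peptidase DPP4. Both were made with a SeekOne DD 5' kit from tumour cells enriched for the leukocyte antigen CD45 on magnetic columns. The labels used here give neither the number of mice per library nor the age of the mice. With 1 library per diet there was no replicate error and no test, and all intervals below cover counting error only.

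Control held 8694 cell barcodes and 64139749 UMIs, and Sitagliptin 9766 barcodes and 76788699 UMIs. The lowest barcode total was 2001 UMIs, and 132 barcode sequences occurred in both libraries. Each barcode was assigned to a class by UMIs of marker genes, none of them a ribosomal protein gene. Barcodes with markers of several classes were called mixed. Ptprc, the gene for CD45, reached 647 CPM in Control and 673 CPM in Sitagliptin monocytes and macrophages. CPM here are UMIs of a gene scaled to the same total in every class and library. In the tumour or stromal class it stood at 40.0 and 33.0 CPM, so that class went against the CD45+ label.

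Each ribosome carries a copy of nearly every ribosomal protein, and cells that grow or divide make many ribosomes. The mRNAs of these proteins begin with a C followed by further pyrimidines, the 5' terminal oligopyrimidine (TOP) tract, through which the kinase mTOR and the RNA-binding protein LARP1 adjust their translation. Ribosomal protein mRNAs are short and abundant, and they form a large part of the RNA counted in most single-cell libraries.

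The start sites of 6 members are shown as examples, and all 6 held a tract by the rule given below. Members above the common ratio between libraries but without such a tract, among them Rps28, Rpl37 and Rpl37a, are not shown. The 6 therefore cannot show whether the tract goes with the differences between libraries described further down. The first 4 genes lay above the common ratio between libraries, and the last 2 were lower in Sitagliptin. Each line gives 30 bases before the annotated start and 20 from it on, from RefSeq's promoter sequences for GRCm38.p6, with the longest pyrimidine tract near that start in capitals.
Rps27: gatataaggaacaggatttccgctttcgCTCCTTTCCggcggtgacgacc
Rpl38: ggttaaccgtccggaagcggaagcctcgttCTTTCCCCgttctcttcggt
Rpl39: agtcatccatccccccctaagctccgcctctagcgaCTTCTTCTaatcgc
Rpl14: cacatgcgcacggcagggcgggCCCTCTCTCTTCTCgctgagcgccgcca
Rps10: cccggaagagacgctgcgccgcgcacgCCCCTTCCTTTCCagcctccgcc
Rpl13: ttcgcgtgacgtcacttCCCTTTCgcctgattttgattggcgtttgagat

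The Rps27 window lies at chr3:90213629-90213678 on the minus strand and the Rpl38 window at chr11:114668550-114668599 on the plus strand. Those of Rpl39 and Rpl14 lie at chrX:37085203-37085252, minus strand, and chr9:120571487-120571536, plus strand. Rps10 starts within chr17:27635225-27635274 on the minus strand, and Rpl13 within chr8:123102320-123102369 on the plus strand. Each window spans the end of the promoter and the first bases of the 5' UTR. A tract was counted when an unbroken run of at least 6 C or T letters, beginning with C on the transcript's strand, started within 15 bases of an annotated start. By this rule 38 of the 64 members with an entry (59.4%) held a tract, against 29.5% of all 27025 genes in the table. Using only the first listed start of each gene, the shares were 54.7% and 26.3%. Such a match describes the letters only, and the starts are RefSeq's, not measured here.

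A few members supplied much of the ribosomal protein RNA. Among the 8 with the most UMIs were Rpl13, Rps24, Rps27a (made as a fusion with ubiquitin), Rpl41, Rps10 and Rpl23. Rpl13, a large subunit protein, had 4556 CPM in Control and 3552 CPM in Sitagliptin over all barcodes. Together the 8 genes took 21.8% of member UMIs in Control and 21.1% in Sitagliptin. These are counts of 5' molecules and were not divided by transcript length. The 8 lowest were Rpl3l, Rps27rt, Rpl7l1, Rps19bp1, Rpl22l1, Rps27l, Rps25 and Rpl36al, that is, all 6 paralogs, the Rps19 partner and 1 core member. Rpl3l, a paralog known from striated muscle, stood at 0.624 and 0.794 CPM. Rps25 had 401 CPM in both libraries.

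Ribosomal protein genes took 13.7% of all UMIs in Control and 12.6% in Sitagliptin, and the cell classes differed far more than that. The share was highest in tumour or stromal cells, which carry keratin and collagen genes, and in NK cells. It was intermediate in T cells and lowest in monocytes and macrophages and in dendritic cells. Tumour or stromal barcodes gave 19.0% in Control (1264 barcodes) and 19.1% in Sitagliptin (712). T cells gave 14.4% (250 barcodes) and 14.5% (411). Monocytes and macrophages, the largest class, gave 10.2% (4550) and 10.1% (6029), and dendritic cells 9.80% (103) and 9.89% (138). Both libraries thus placed these classes in the same order. NK cells had 19.5% in 99 Control barcodes and 18.03% in 156 Sitagliptin barcodes. They missed the minimum of 100 barcodes per library for a comparison, so their values are given for description.

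Within Control, the T cell share was 1.41 times that of monocytes and macrophages (95% counting interval 1.41 to 1.42), and within Sitagliptin 1.43 times (1.43 to 1.44). The tumour or stromal share was 1.86 and 1.89 times as high. Dendritic cells lay close to monocytes and macrophages, at 0.961 times (0.952 to 0.970) in Control and 0.980 times (0.973 to 0.987) in Sitagliptin. The order of those neighbours turned by the median barcode: dendritic cells lay 0.790 percentage points below monocytes and macrophages in Control and 0.681 above them in Sitagliptin. Classes with fewer barcodes were neutrophils (8.31% in 22 barcodes and 9.19% in 16), plasmacytoid dendritic cells (10.5% in 10 and 9.48% in 19) and B cells (2 and 5 barcodes). Mixed barcodes stood at 12.5% and 12.2%. Those that joined T cell markers with monocyte and macrophage markers had 11.7% and 11.6%, values between the shares of both classes.

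**Figure D1:**
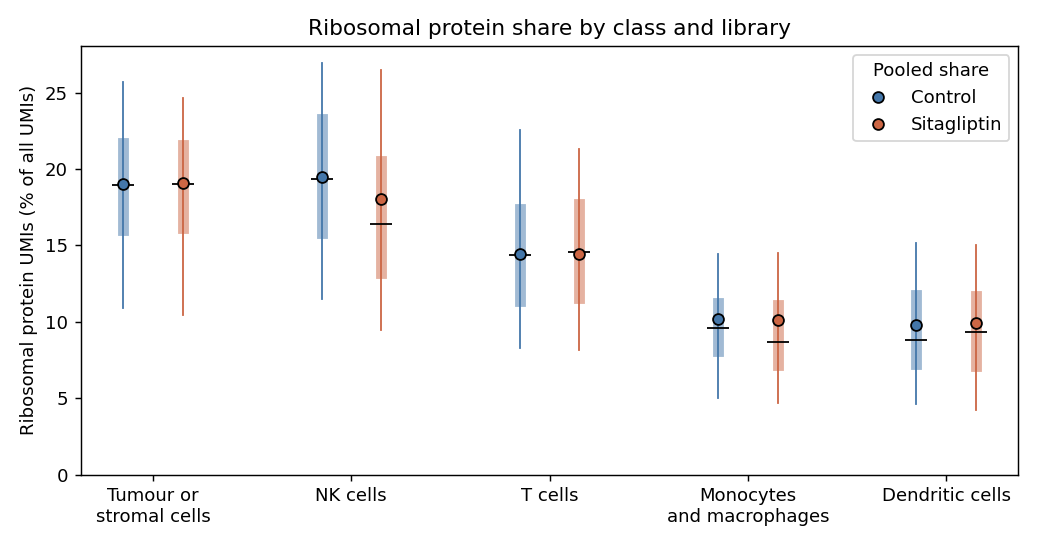
Ribosomal protein UMIs as a percent of all UMIs (y axis) for 5 cell classes (x axis) in Control and Sitagliptin. Circles are pooled shares, black dashes the median barcode, thick bars the middle 50% of barcodes and thin lines the 5th to 95th percentile; tumour or stromal cells lie near 19% and monocytes and macrophages near 10% in both libraries, with wide overlap between single barcodes.

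Between diets, the share within a class differed by at most about 1% in each of the 4 compared classes when UMIs were pooled. The ratio of Sitagliptin over Control was 1.003 (0.997 to 1.009) in T cells, 1.01 (0.997 to 1.02) in dendritic cells, 0.990 (0.989 to 0.992) in monocytes and macrophages and 1.004 (1.003 to 1.006) in tumour or stromal cells. In NK cells it was 0.926 (0.918 to 0.934). Over all barcodes it was 0.920, a larger gap than in any compared class. The class make-up differed alongside: tumour or stromal cells supplied 30.2% of UMIs in Control and 19.8% in Sitagliptin, and monocytes and macrophages 41.6% and 52.9%. With the Sitagliptin shares weighted by the Control make-up, the total came to 13.5%. With the Control shares weighted by the Sitagliptin make-up, it came to 12.8%.

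This near equality did not hold at every barcode depth. In monocytes and macrophages the median barcode had 9.60% in Control and 8.68% in Sitagliptin. Among their barcodes of 2001 to 3000 UMIs the pooled shares were 8.92% (1471 barcodes) and 7.83% (1680). Above 10000 UMIs the order was the opposite, with 10.8% (721) and 11.2% (1346). The share rose with depth in both libraries. In barcodes of at most 5000 UMIs, the ratio between diets was 0.881 in monocytes and macrophages and 0.922 in dendritic cells. It turned to 0.765 in tumour or stromal cells, where few barcodes were this small: 40 and 57 in the 2 lowest depth bins of Control, and 18 in each of those bins of Sitagliptin. T cells showed no steady change with depth, with 15.4% and 14.3% in the lowest bin (91 and 147 barcodes) and 14.0% and 13.7% in the bin above 5000 and up to 10000 UMIs (68 and 101).

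**Figure D2:**
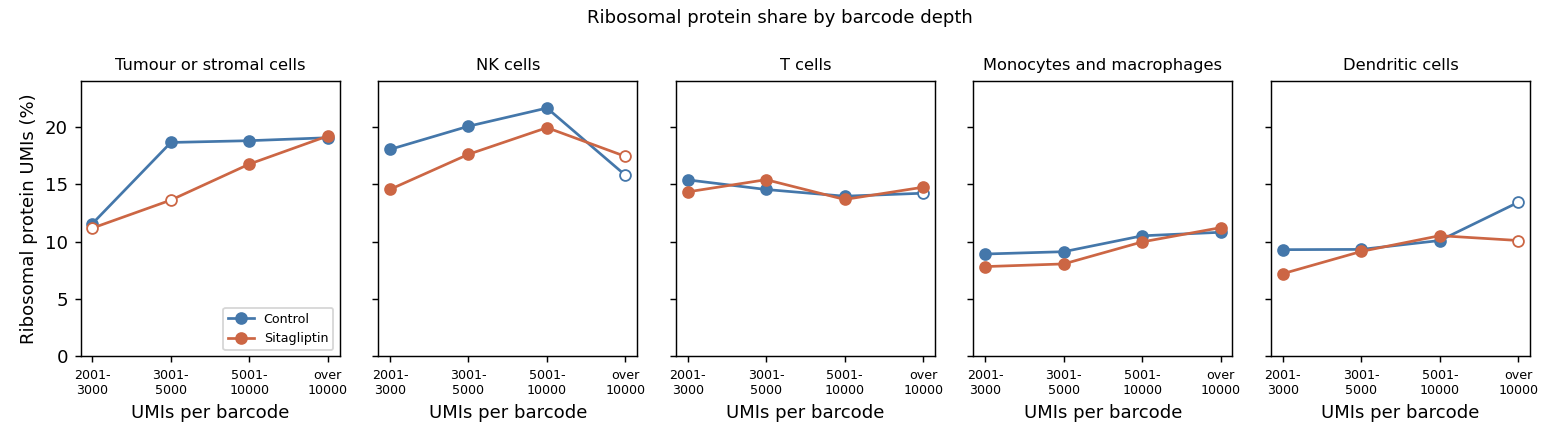
Pooled ribosomal protein share (y axis, percent of UMIs) by UMIs per barcode (x axis) for 5 classes; open circles mark bins of under 20 barcodes. In monocytes and macrophages the Sitagliptin line starts at 7.83%, below the 8.92% of Control, and ends at 11.2%, above the 10.8% of Control.

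Monocytes and macrophages were further divided by their own genes. Barcodes with UMIs of at least 2 of 5 monocyte genes, such as Ly6c2 and Vcan, but under 10 C1q UMIs per 10000 had shares of 8.74% in Control (514 barcodes) and 8.16% in Sitagliptin (824). Barcodes with at least that level of the complement genes C1qa, C1qb and C1qc, which mark mature macrophages, but with fewer than 2 monocyte genes had 10.5% (2889) and 10.6% (3540). The C1q side was higher in both libraries and also deeper, with medians of 5225 and 6430 UMIs per barcode against 3329 and 4064. Barcodes with UMIs of at least 2 cycling genes had 10.8% (1544) and 10.7% (1777), against 9.85% (3006) and 9.81% (4252) in the rest. In T cells the same split gave 14.7% and 14.9% in cycling barcodes and 14.2% in the rest of both libraries. The split selects deeper T cell barcodes, with medians of 4638 and 5616 UMIs against 3150.5 and 3155.5. In T cell barcodes of at most 5000 UMIs the order turned, with 13.9% (45 barcodes) and 14.3% (42) in cycling barcodes against 15.3% (125) and 15.1% (234) in the rest. The Control median T cell barcode also turned, at 13.99% against 14.5%. With the same depth limit the C1q side of monocytes and macrophages stayed higher, at 9.56% and 8.48% against 7.76% and 7.39%. Their cycling barcodes also stayed higher there, at 9.63% and 8.07% against 8.77% and 7.91%.

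In T cells, NK cells and tumour or stromal cells most members moved as a block. Relative to monocytes and macrophages of the same library, 79 of 83 members were higher in T cells in both libraries, against a background of 46.8% of all 11407 genes. The median member differed by 0.48 on the log2 scale in both libraries. In tumour or stromal cells 80 of 83 were higher, against a background of 61.4%, with medians of 0.90 and 0.91. In NK cells 80 were higher (background 42.7%), with medians of 0.91 and 0.82. In dendritic cells 24 were higher and 48 lower (background for higher 28.9%), with medians of -0.09 and -0.05. There the count of higher members was near the share of all genes, and no such share is given for lower. Rpl13a and Rps15a led the T cell differences, at 1.04 and 1.01 in Control and 1.03 and 1.06 in Sitagliptin. Rps2, a small subunit protein, led those of tumour or stromal cells, at 1.498 and 1.66.

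Only paralogs lay at least 2-fold from the median member on the same side in both libraries. Rps27l, a paralog of Rps27 known as a p53 target, had 673 and 518 CPM in dendritic cells of Control and Sitagliptin, against 219 and 212 CPM in monocytes and macrophages. That is a log2 difference of 1.62 and 1.29, while the median dendritic cell member lay slightly below 0. In NK cells Rps27l stood at 139 and 131 CPM, from 65 and 96 UMIs, a log2 difference of -0.66 and -0.69. In T cells it had 175 and 167 CPM, and in tumour or stromal cells 194 and 203 CPM, so dendritic cells had the highest level in both libraries. Of all genes, 7.01% lay this far above the members' median in dendritic cells and 29.5% this far below it in NK cells.

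Rpl36al, an intronless copy of Rpl36a, was the one member far below the median in tumour or stromal cells, with 367 and 396 CPM against 444 and 469 CPM in monocytes and macrophages. Its parent gene Rpl36a had 1112 and 1225 CPM in tumour or stromal cells, against 479 and 516 CPM. The copy was thus slightly lower and the parent more than 2-fold higher in the same barcodes. Of all genes, 31.4% lay this far below the members' median there. Rpl22l1, the paralog of Rpl22, was also not higher in tumour or stromal cells, with 132 and 156 CPM against 146 and 157. In T cells it was higher, with 227 and 242 CPM. Rpl7l1, a nucleolar factor for large subunit assembly, had 63.7 and 66.3 CPM in tumour or stromal cells against 47.6 and 43.4. No member was this far from the median in T cells, where 5.39% of all genes lay this far above it and 20.2% this far below it. The remaining backgrounds were 3.57% above in NK cells, 12.2% below in dendritic cells and 12.4% above in tumour or stromal cells, where 0 members lay that far on those sides.

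**Figure D3:**
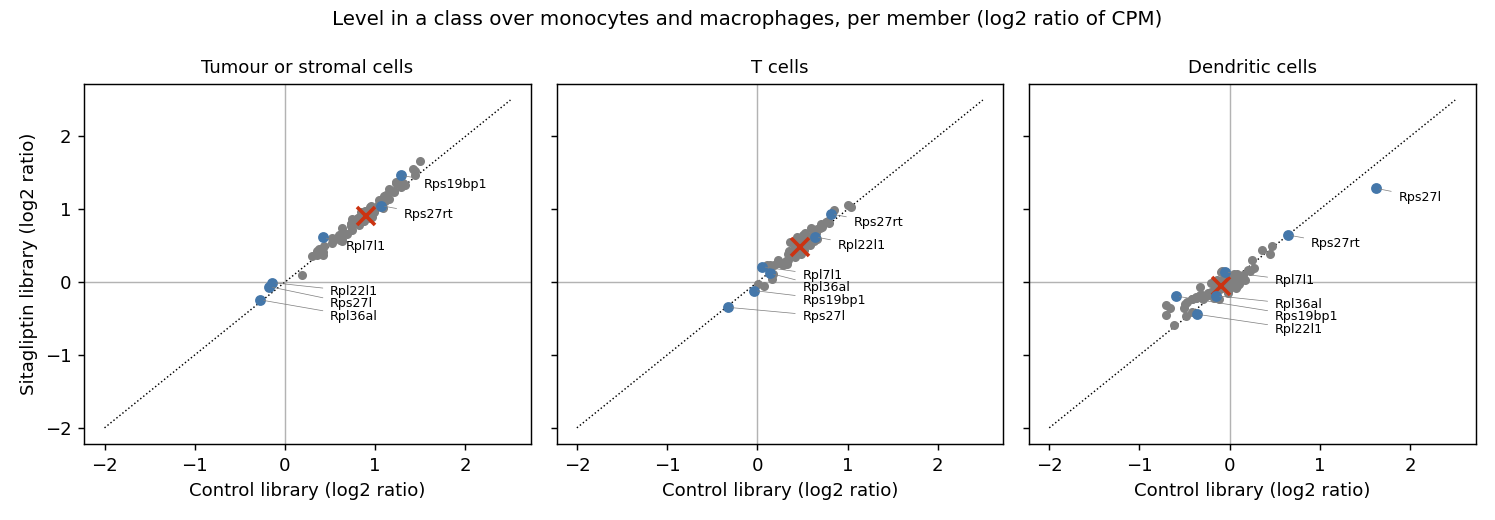
Log2 ratio of each member's CPM in a class over monocytes and macrophages, Control on the x axis and Sitagliptin on the y axis, in 3 classes; blue points are named paralogs and Rps19bp1, the red cross is the median member and the dotted line marks equal values. Most members cluster near the cross (0.90 and 0.91 in tumour or stromal cells), and Rps27l stands apart in dendritic cells at 1.62 and 1.29.

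Between diets, many members lay close to a common ratio, and a set of 9 genes, most of them of short coding sequence, lay above it in every class. In monocytes and macrophages the median ratio of Sitagliptin over Control was 0.953 over the 83 members with at least 100 UMIs (all but Rpl3l), against 0.947 over all 11259 genes. Of the members, 31 were higher and 52 lower, beside 3917 higher and 7342 lower over all genes. In T cells the median was 0.967 (35 higher, 48 lower), in tumour or stromal cells 0.995 (40 and 43) and in dendritic cells 0.988 over 80 members (38 and 42). In NK cells it was 0.916 over 81 members (22 and 59). The medians of all genes in these 4 classes were 0.957, 0.980, 0.968 and 0.986. All genes divided into 1903 higher and 2731 lower in T cells, 4658 and 5990 in tumour or stromal cells, 839 and 1124 in dendritic cells, and 916 and 1042 in NK cells. Within 1.1-fold of the members' median lay 48 of 83 members in monocytes and macrophages, 45 of 83 in T cells, 49 of 83 in tumour or stromal cells, 40 of 80 in dendritic cells and 37 of 81 in NK cells. No such count was made for all genes. In monocytes and macrophages the lower and upper quartiles were 0.899 and 1.077 for members and 0.866 and 1.04 for all genes. In tumour or stromal cells they were 0.938 and 1.11, and 0.897 and 1.07. These spreads were similar, so closeness to a common ratio did not set the members apart in these classes. All genes spread more widely in T cells (0.840 and 1.09, members 0.900 and 1.07) and also in dendritic and NK cells. Ratios of genes with few UMIs carry more counting error, and the spreads were not compared at equal UMIs. The wider spread of all genes therefore does not show that the members kept closer together.

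A member was counted off the common trend when its ratio was at least 1.3-fold from the members' median and its counting interval left that median out. In monocytes and macrophages 10 of 83 members were off the trend on the higher side, against 4.1% of all genes by the same rule, and 0 on the lower side (4.44%). T cells had 12 of 83 higher (6.28%) and 0 lower (7.08%). Tumour or stromal cells had 11 of 83 higher (3.68%) and 0 lower (4.46%). Dendritic cells had 11 of 80 higher (7.85%) and 0 lower (9.17%). With a minimum of 1000 UMIs per gene, dendritic cells had 8 higher (6.16% of genes), of which 3 were among the 11, and Rps29, with 181 and 756 UMIs, fell under that minimum. NK cells had 10 of 81 higher (12.9%), close to the share of all genes, and 1 lower (4.49%). The lower one was Rplp0, which with Rplp1 and Rplp2 forms the stalk that recruits translation factors, at 2981 and 2099 CPM (0.704, 0.655 to 0.758). Rplp0 lay close to the limit. It was no longer off the trend without the highest doublet scores, without shared barcodes, or in barcodes of at most 5000 UMIs. The same held with at least 1000 UMIs per gene and at 1.5-fold. It stayed off the trend with 3 markers needed, classes called on 2000 UMIs, the median of all genes, or pseudogene copies added.

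The same 9 genes were off the trend on the higher side in all 4 compared classes and in NK cells. They were Rps21, Rps27, Rps28 and Rps29 of the small subunit and Rpl14, Rpl37, Rpl37a, Rpl38 and Rpl39 of the large subunit. Their ratios ran from 1.33 to 2.36 in monocytes and macrophages, with a median of 1.501, while the other 74 members had a median of 0.941. In T cells the 9 ran from 1.38 to 2.27, in dendritic cells from 1.36 to 2.27 and in tumour or stromal cells from 1.33 to 2.24. A cell class is not an independent replicate here, since all classes of a diet come from the same library. No share of all genes off the trend in all these classes at once is given, so the number 9 has no background beside it. The set depended on the limit: at 1.5-fold only Rps28, Rps29 and Rpl38 stayed off the trend in all 4 compared classes. In barcodes of at most 5000 UMIs, Rpl14 was no longer off the trend in monocytes and macrophages. Rpl37, Rpl37a and Rps21 were then no longer off it in tumour or stromal cells.

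Rps29, a small zinc-binding protein of the small subunit, had the highest ratio in T cells, in monocytes and macrophages and in tumour or stromal cells. In dendritic cells Rps28 and in NK cells Rps27rt had a higher one. Rps29 had 473 CPM in Control and 1120 CPM in Sitagliptin monocytes and macrophages, which is 2.36-fold (2.32 to 2.41). T cells had 533 and 1208 CPM of Rps29 (2.27, 2.07 to 2.48). It stood in dendritic cells 437 and 952 CPM (2.18, 1.85 to 2.58), in tumour or stromal cells 538 and 1204 CPM (2.24, 2.18 to 2.29) and in NK cells 689 and 1409 CPM (2.05, 1.80 to 2.33). Every class was thus higher in Sitagliptin by about the same factor. Rps28, also of the small subunit, had 562 and 1105 CPM in monocytes and macrophages (1.97, 1.93 to 2.003) and 1197 and 2245 CPM in tumour or stromal cells (1.87, 1.84 to 1.91). In dendritic cells it had 405 and 919 CPM (2.27, 1.91 to 2.70).

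Rpl38, a large subunit protein, had 532 and 979 CPM in monocytes and macrophages (1.84, 1.80 to 1.87), 816 and 1474 CPM in T cells (1.81, 1.68 to 1.95) and 812 and 1461 CPM in tumour or stromal cells (1.80, 1.76 to 1.84). Its TOP tract, printed above, starts exactly at the annotated start. Rpl39, which lines the tunnel through which the new protein leaves the ribosome, had 707 and 1013 CPM in monocytes and macrophages (1.43, 1.41 to 1.46). Rps27 and Rps21 had 393 and 599 CPM (1.52, 1.49 to 1.56) and 442 and 664 CPM (1.501, 1.47 to 1.53) in that class. Rpl37, Rpl37a and Rpl14, all of the large subunit, were nearer the limit, with ratios of 1.40, 1.42 and 1.33.

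Other members were off the trend in fewer classes. Rps27rt, a near-identical retrogene copy of Rps27, had 23.1 and 43.4 CPM in monocytes and macrophages (1.88, 1.72 to 2.07) and was off the trend in every class where it reached 100 UMIs. How the authors' counting divided reads between Rps27 and this copy is not known, so both values are uncertain. Rpl36 and Rpl6 were off the trend in T cells (1.27 and 1.26), Rpl23 in dendritic cells (1.31) and Rps19bp1 in tumour or stromal cells (80.1 and 107 CPM, 1.34). In monocytes and macrophages Rpl14, at 1.33, had the lowest ratio of the members off the trend. The limit there was 1.3-fold from the members' median of 0.953, not from 1. Just outside it lay Rpl35 and Rpl23, both at 1.23, with 1288 and 1590 CPM and with 1812 and 2232 CPM. Rpl41, a peptide of very few residues, stood at 1.17 in monocytes and macrophages and 1.28 in dendritic cells.

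**Figure D4:**
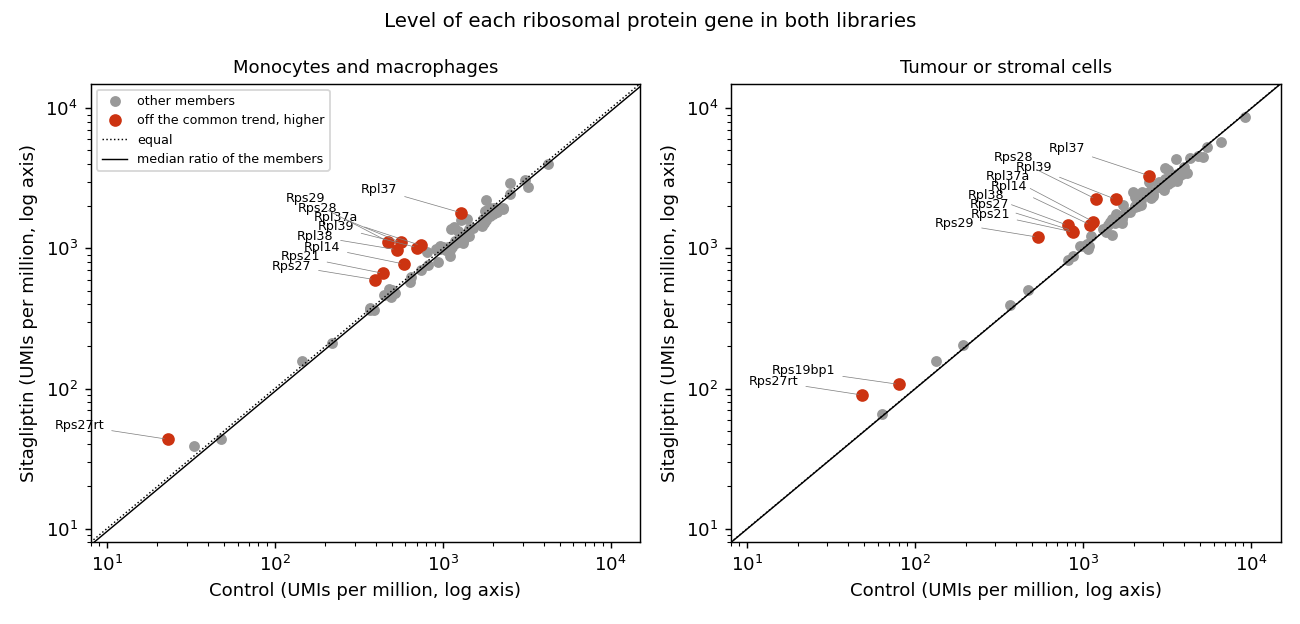
CPM of each member in Control (x axis) and Sitagliptin (y axis), both log axes, in monocytes and macrophages (left) and tumour or stromal cells (right). Grey points follow the line of the median ratio (0.953 and 0.995), and the red, named points are the 10 and 11 members off the trend, with Rps29 at 473 and 1120 CPM on the left; Rpl3l is not shown.

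The abundant members named above lay on both sides of the common ratio, which was 0.953 in monocytes and macrophages. Rpl13 had 3212 and 2735 CPM in monocytes and macrophages (0.852, 0.844 to 0.859) and Rps10 had 2113 and 1822 CPM (0.862, 0.853 to 0.872). Rps24 and Rps27a lay near 1, at 0.999 and 0.975, and Rpl41 and Rpl23 lay higher, at 1.17 and 1.23. The stalk proteins divided, with Rplp0 at 0.863, Rplp1 at 0.891 and Rplp2 at 1.03. The paralogs Rps27l, Rpl7l1, Rpl22l1 and Rpl36al stood at 0.968, 0.910, 1.08 and 1.06 in the same class. Rps25 stood at 1.02.

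What the 9 genes shared was a short coding sequence. Their coding length in the GENCODE vM21 mouse annotation had a median of 249 bases (153 to 651), against 468 bases (75 to 1257) over the other 75 members. Of the 9, 8 had at most 300 coding bases, as did only 3 of the 75 others, namely Rpl41, Rps27l and Rps27rt. Rpl14, at 651 bases, was the exception among the 9. Over the members, Spearman's rho between coding length and ratio was -0.66 in T cells (83 genes), -0.66 in monocytes and macrophages (83), -0.63 in tumour or stromal cells (83), -0.52 in dendritic cells (80) and -0.69 in NK cells (81). Over all other genes the same rho ranged from -0.01 to 0.23. These are descriptions across genes of the same 2 libraries, and genes are not replicates.

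Coding length and the 300-base limit were looked at after the ratios had been seen, and transcript length was tried first, with weaker values of -0.35 to -0.44. The 11 members of at most 300 coding bases together took 0.788% and 1.15% of the UMIs of monocytes and macrophages, a ratio of 1.46 (1.45 to 1.47). In T cells they took 1.096% and 1.63% (1.48, 1.45 to 1.52), in tumour or stromal cells 1.28% and 1.87% (1.46, 1.46 to 1.47) and in dendritic cells 0.775% and 1.13% (1.45, 1.39 to 1.51). The summed UMIs of the other 73 members were lower in Sitagliptin in each of these classes, at 0.951, 0.963, 0.971 and 0.971. Not every one of them was lower. Those of over 300 and up to 400 coding bases summed to 22210 and 23000 CPM in monocytes and macrophages, with 13 of 18 higher. Their sums were also higher in the other compared classes. The nearly equal pooled shares between diets thus joined a higher sum of the short members with a lower sum of the rest.

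Other genes of short coding sequence differed less between the libraries. In monocytes and macrophages, 12 of 228 genes outside the family with at most 300 coding bases had a ratio of at least 1.3, and their median ratio was 0.958. Of the 11 members of that length, 9 had such a ratio, against 3.25% of all genes. Of the short genes outside the family, 17 of 155 in T cells, 22 of 223 in tumour or stromal cells, 20 of 100 in dendritic cells and 17 of 104 in NK cells had a ratio of at least 1.3. Their medians in these classes were 0.960, 1.003, 1.05 and 1.01, and those of the short members 1.67, 1.496, 1.49 and 1.38. Of genes outside the family with over 1500 coding bases, 106 of 4709 reached 1.3 in monocytes and macrophages and 147 of 1963 in T cells. In tumour or stromal, dendritic and NK cells 159 of 4562, 76 of 744 and 94 of 780 did. Short genes outside the family thus reached 1.3 more often than these long genes in every class, but less often than the short members. Of the 9 genes, 5 of the 8 with a promoter entry held a tract by the letter rule above, as did 33 of the 56 others with an entry. Rps29 had no entry. The rule marked only 59.4% of members and also 29.5% of all genes, on starts not measured here. It therefore cannot show whether the TOP tract goes with the ratio. The longest tracts shown were those of Rpl14 (14 bases, above the trend) and Rps10 (13 bases, under it).

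**Figure D5:**
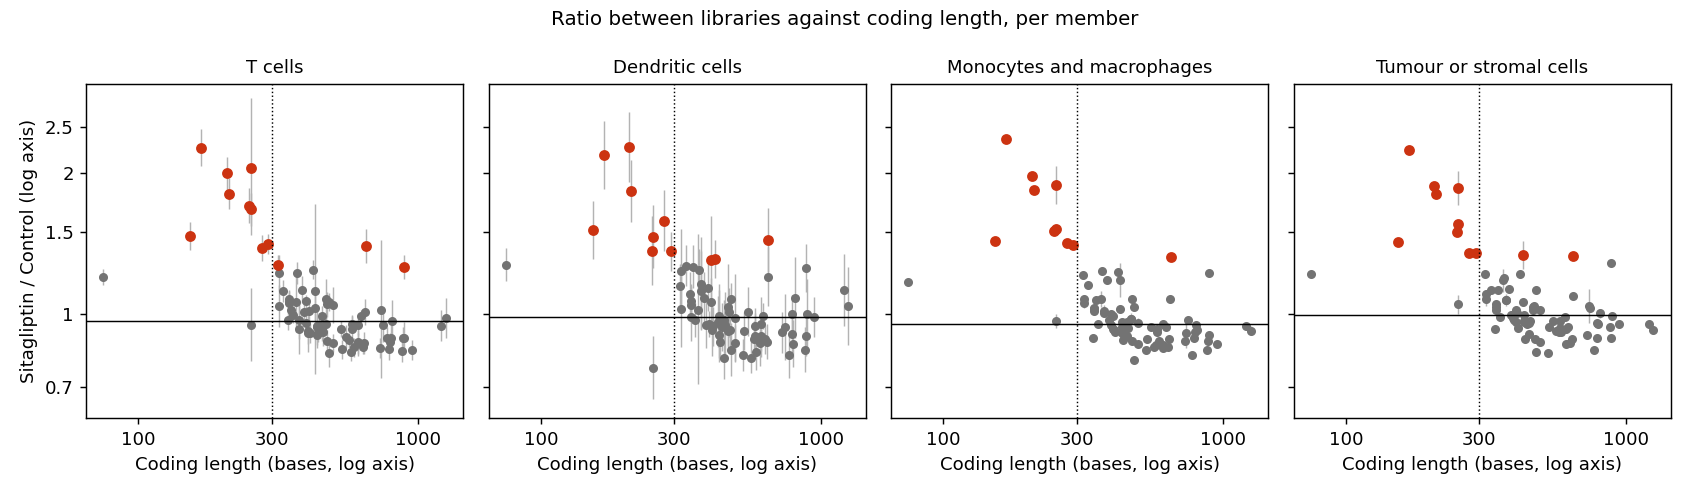
Ratio of Sitagliptin over Control (y axis, log) against coding length in bases (x axis, log) per member in 4 classes, with 95% counting intervals as grey bars. Red points are off the trend, the solid line is the members' median ratio (0.953 in monocytes and macrophages) and the dotted line marks 300 bases; red points right of it are Rpl14 in every panel, Rpl36 and Rpl6 in T cells, Rpl23 among those in dendritic cells and Rps19bp1 in tumour or stromal cells.

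The values of other cell markers in the compared class also differed between libraries. In monocytes and macrophages the 3 C1q genes summed to 5770 CPM in Control and 4561 in Sitagliptin, and the 5 monocyte genes to 406 and 492 CPM. The 8 cycling genes stood at 595 and 520 CPM there, with all 8 lower. In T cells the cycling genes summed to 1164 and 896 CPM, and the C1q genes to 88.2 and 94.6 CPM. Dendritic cells had 483 and 232 CPM of the monocyte genes, of which Plac8, the only one with at least 100 UMIs there, stood at 277 and 125 CPM (0.449). Tumour or stromal cells had 54.2 and 64.0 CPM of the C1q genes. The part of these differences in the ratios of the ribosomal protein genes was not tested.

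Genes that act with the ribosome did not show a comparable set of high ratios. Fau, which encodes a small subunit protein fused to a ubiquitin-like domain, had 3478 and 4094 CPM in monocytes and macrophages (1.18, 1.17 to 1.19). Rack1, a scaffold on the small subunit, had 634 and 545 CPM (0.860, 0.843 to 0.877). Of 19 other genes with TOP mRNAs, mostly translation factors, 4 were higher and 15 lower in monocytes and macrophages, with a median of 0.944, where 3917 of all 11259 genes were higher. The elongation factor gene Eef1a1 stood at 1458 and 1375 CPM (0.944), and Tpt1 at 3116 and 3580 CPM (1.15). Snhg8, a host gene of a small nucleolar RNA, was the only one at least 1.3-fold higher, with 24.1 and 32.1 CPM (1.33, 1.21 to 1.47).

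The counts of higher and lower genes that follow stand beside 3917 higher and 7342 lower of all 11259 genes in monocytes and macrophages. Of 30 ribosome biogenesis factors, 9 were higher and 21 lower in monocytes and macrophages, with a median of 0.935. This division was near that of all genes in the class. In tumour or stromal cells 20 were higher and 10 lower, with a median of 1.04. All 10648 genes in tumour or stromal cells divided into 4658 higher and 5990 lower, with a median of 0.980. Polr1b, a subunit of RNA polymerase I, stood at 10.5 and 7.39 CPM in monocytes and macrophages (0.702, 0.595 to 0.829). Of the 14 measured genes of TOR and MYC control, 4 were higher and 10 lower there, with Myc at 33.3 and 29.3 CPM (0.882). The mitochondrial ribosomal proteins, which build the separate ribosome of that organelle, had 15 of 78 higher and 63 lower, with a median of 0.901. Among them Mrpl48 was higher (26.2 and 36.3 CPM, 1.39), and Mrpl28 (70.7 and 51.7 CPM, 0.731) and Mrps18b (24.7 and 18.5 CPM, 0.748) were lower. The median over all genes in this class was 0.947. By the 1.3-fold limit from 1, 3.25% of all genes were higher and 7.65% lower.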

How the data were processed

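The authors deposited raw UMI counts per gene and barcode for each library. Per the labels, cells were CD45+ by MACS and libraries were made with a SeekOne 5' kit. The aligner, counting program, build and annotation behind the counts were not stated in the labels or file headers. Members and gene lists were chosen with earlier results of these data known.

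Matrices were read in Python 3.11.15 with scipy 1.17.1 and pandas 2.3.3. A class was present in a barcode with at least 2 of its markers and at least 3 marker UMIs per 10000 (10 for monocytes and macrophages, neutrophils, and tumour or stromal cells). Barcodes with 1 class were called to it, and others were mixed or uncalled. For each class of a library, UMIs were added up and divided by the class total. Shares have Clopper-Pearson and ratios exact conditional binomial 95% intervals, which cover counting error only. A comparison needed 100 barcodes per library. Doublets stayed in the main values: Scrublet (scanpy 1.11.5) set no usable threshold, so 6% per library (522 and 586) were removed as an alternative. The ratio and its interval were tested on simulated data.

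Genes named were the 8 highest and 8 lowest members, members off a trend (up to 6 per class and direction, or in 2 or more classes), the paralogs, and up to 4 genes per related list and direction at least 1.3-fold apart in monocytes and macrophages. Genes outside this rule (such as Rpl35, Rpl36a, Plac8, Rpl13a, Rps15a, Rps2, Rplp1, Rplp2, Eef1a1, Tpt1 and Myc) were added after their values were seen. Coding lengths came from GENCODE vM21 and start sites from RefSeq. Values of some genes that this rule names are not reported here.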

Additional observations from a re-analysis of the deposited data

Results flagged for a closer look

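Pseudogene rows were left out of the members, and 4 of 5 held UMIs in at least 1 library; there is no control for such reads. Rpl9-ps6 had 6968 UMIs in Control and 10736 in Sitagliptin, and Rpl10-ps3 had 1410 and 2480. Rpl36a-ps1 had 44 and 88 UMIs, and Rpl9-ps1 had 7 in Control. Rpl36-ps4 had 0 in both. In all they came to 0.0962% and 0.138% of member UMIs. Their parents Rpl9 and Rpl10 had 0.861 and 0.884 as ratios in monocytes and macrophages, and how reads of near-identical copies were assigned by the authors is not known.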

How the results depend on the processing

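No paired analysis was possible because each diet had 1 library. Leaving out a replicate was not possible for the same reason. Shares and ratios are given in the order T cells, dendritic cells, monocytes and macrophages, tumour or stromal cells. Values of these classes that are not listed stayed within their counting interval or, for counts, within 1.5 times the main value. NK cell values are not listed in full, and many moved. Their ratio was 0.845 in barcodes of at most 5000 UMIs, with a Sitagliptin share of 16.3%. It was 0.880 with classes called on 2000 UMIs. The count of NK cell members off the trend lower ranged from 0 to 4.

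Needing 3 markers moved the Control shares to 14.6%, 9.05%, 10.3% and 18.9% and the Sitagliptin shares of the last 3 classes to 9.34%, 10.1% and 19.0%, with ratios of 0.994, 1.03, 0.985 and 1.006; 1 dendritic cell member, Rps27l, became off the trend lower. Calling classes on 2000 UMIs gave Control shares of 14.7%, 10.4%, 10.6% and 18.8% and Sitagliptin shares of 14.9%, 9.67%, 10.4% and 18.6%. The ratios were 1.01, 0.933, 0.985 and 0.989, so the tumour or stromal ratio reversed. With these calls 18 dendritic cell members were off the trend higher, including the 11 of the main count. Barcodes of at most 5000 UMIs gave Control shares of 14.9%, 9.32%, 9.03% and 16.6% and Sitagliptin shares of 14.95%, 8.59%, 7.96% and 12.7%. The ratios of the last 3 classes were 0.922, 0.881 and, reversed, 0.765, and 2 members were off the trend lower in dendritic cells and 2 in tumour or stromal cells. There 6 of the 11 higher members of tumour or stromal cells remained among 8.

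The mean of barcode shares gave 14.7%, 9.48%, 9.69% and 18.8% in Control and 14.6%, 9.44%, 9.17% and 18.6% in Sitagliptin. The ratios were 0.993, 0.996, 0.946 and, reversed, 0.989. Without members of at most 300 coding bases, the Control shares were 13.3%, 9.03%, 9.41% and 17.7%, the Sitagliptin shares 12.8%, 8.77%, 8.95% and 17.2%, and the ratios 0.963, 0.971, 0.951 and, reversed, 0.971. With core members only, the shares were 14.3%, 9.67%, 10.1% and 18.9% in Control and 14.4%, 9.77%, 10.001% and 19.0% in Sitagliptin. With mitochondrial genes and Malat1 out of the total they were 14.6%, 10.02%, 10.4% and 19.2% and 14.7%, 10.1%, 10.3% and 19.3%. Mixed barcodes counted as T cells gave 12.3% in both libraries. Adding pseudogene rows gave 10.1% in Sitagliptin monocytes and macrophages and 19.0% and 19.1% in tumour or stromal cells. Without shared barcodes, the Control shares of T cells and of tumour or stromal cells were 14.3% and 18.9%, with ratios of 1.01 and 1.006. Without the highest doublet scores, the Sitagliptin shares were 14.4%, 9.96%, 10.003% and 19.2%, the Control shares of the last 2 classes 10.1% and 19.1%, and the T cell ratio 0.997; 1 dendritic cell member became off the trend lower.

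A 1.5-fold limit left 7 members off the trend between diets in T cells, 5 in dendritic cells and 6 in tumour or stromal cells. Between classes it gave 2 members higher in dendritic cells, 1 lower in T cells, and 1 higher and 4 lower in tumour or stromal cells. No share of all genes is given for these counts or for the off-trend counts in the preceding paragraphs of this section. They therefore cannot be set against a background. With at least 1000 UMIs per gene, 3 of the 11 dendritic cell members remained among 8. The alternatives on shared barcodes, coding length, depth for the trend and a class minimum of 50 barcodes were chosen after seeing the data. The cause of these differences was not tested. Few barcodes limit dendritic cells (103 and 138) and NK cells (99 and 156), where fewer genes reached 100 UMIs (1963 and 1958) than in T cells (4634).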
